A study of Mus musculus with 16 samples.

Results

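Neuropeptides are short signalling peptides cut from longer precursor proteins, stored in dense-core vesicles and released mainly during sustained firing, after which they act on G protein-coupled receptors. In the hippocampus several of them mark classes of GABAergic interneurons, while others are made by principal cells, and the opioid precursor Pdyn is a known product of dentate granule cells. The 10 genes described here are Sst, Npy, Cck, Penk, Pdyn, Vip, Tac1, Tac2, Crh and Nts, taken by gene symbol from the 24972 genes of the deposited tables. All 10 were listed in every one of the 16 libraries, which were made by bulk RNA-seq. Between the libraries labelled CA1, CA3 and DG, 0 of the 7 members that could be tested passed by limma (1 or 2 per comparison had an unadjusted p under 0.05, with Penk lower in CA3 than in DG and Npy lower in CA1 than in DG among them), where 0% to 1.8% of all genes passed. Sst was the only member to pass the test for training, in CA3, where 0.852% of all genes passed.

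Libraries came from 6 ArcCreERT2::eYFPflx mice on a C57BL/6 background, aged 3 to 4 months and of both sexes. In this line the promoter of Arc, an activity-regulated gene, drives a tamoxifen-inducible Cre, and trained and untrained mice alike carried it. The 3 trained mice had learned to avoid a shock zone on a rotating arena over 4 trials. The 3 untrained mice were placed on the same arena with the shock off. All mice had a retention test without shock 24 h after training, and tissue was taken 60 min later. Each training group gave 3 libraries labelled CA1. For CA3 and for DG, 3 libraries came from trained and 2 from untrained mice. Each library is a dissected piece of hippocampus, so fewer cells of a type and less RNA per cell cannot be told apart. Values are estimated read counts already normalized between libraries, called normalized counts below.

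The libraries were checked against their labels before the peptides were read. Prox1, a transcription factor that defines dentate granule cells, lay between 3052 and 3861 in the libraries labelled CA1, between 2690 and 4786 in CA3 and between 3292 and 4183 in DG. The summed level of 7 granule cell markers ranged from 9497 to 11710 in CA1, from 8654 to 14590 in CA3 and from 10210 to 12940 in DG. By limma, 0 of the 7 passed between any pair of subregions (at an unadjusted p under 0.05, 1 did for CA1 against DG and 0 in the others). Of the 7, Tdo2 lay between 40.2 and 89.5 in CA1, between 68.0 and 99.0 in CA3 and between 93.0 and 105.3 in DG. The summed level of 5 CA1 pyramidal markers was highest in untrained CA1 (3446 to 5497), against 1826 to 2312 in trained CA1 and 1061 to 2288 in CA3 and DG. That of 5 CA3 pyramidal markers was 681 to 1362 in CA3 and 927 to 1227 in DG. By training, the CA3 marker sum was 681 and 1009 in untrained and 1076 to 1362 in trained CA3. It was 629 to 645 in untrained and 898 to 1020 in trained CA1, and 927 and 934 in untrained and 1011 to 1227 in trained DG. The dentate markers as a set therefore did not separate the labelled subregions, and the CA3 markers did not set CA3 apart from DG. CA1, CA3 and DG below mean libraries with those labels. Xist, expressed from the inactive X chromosome, was at least 7601 in every trained library and at most 52.4 in all untrained libraries but 1. That library, untrained CA3 replicate 1, had Xist at 10587 together with the Y-linked Ddx3y at 201, and trained DG replicate 3 had both as well (7601 and 255). Ddx3y was between 1.7 and 100.6 in the other trained libraries and between 448 and 553 in the other untrained ones. The CA1 and DG libraries of untrained animal 1 had Xist at 26.1 and 25.5 only, unlike its CA3 library. Mice of both sexes were assigned to each training group, so these transcripts did not follow the stated sexes or, for untrained animal 1, the animal number. Training and these sex-linked transcripts thus cannot be told apart in most libraries. With them as a covariate, 0 of 14673 genes passed over all subregions by limma (1702 at an unadjusted p under 0.05), against 1517 without it. Every call over all subregions given below was thus lost under that covariate. It had an r of -0.9 with training, so the loss cannot tell the 2 apart. Under it the log2 fold change grew for some genes (Sstr3, 0.36 to 0.78) and shrank for others (Pcsk1n, 1.30 to 0.69). In the comparison over all subregions, libraries of 1 animal counted as separate samples. Between 3124 and 9759 genes were listed at 0, and a read was worth roughly 0.51 to 3.19 normalized counts, which puts the libraries at roughly 2490000 to 15320000 reads.

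A sequence feature set Sst apart from the other members whose promoters were searched. RefSeq promoters (GRCm38.p6) were matched by symbol for 8 of the 10 members, and those of Penk and Crh were not analysed here. The 250 bases before each start were searched on both strands for the cAMP response element TGACGTCA, to which CREB binds, and for its shorter form TGACG or CGTCA, which the full motif also contains. Of these members, Sst alone held the full motif, at position -48 counted from the start. Across all 32851 promoters the full motif stood in 1.55% and the shorter form in 17.8%. Vip, Cck, Tac1 and Nts held the shorter form, and Npy, Pdyn and Tac2 held neither. A match is a description of the letters only. The Sst sequence is shown because this gene carries the training result, with stretches of Vip and Cck for comparison, each read along the strand of its gene and with the motif in capitals. Sst lies at chr16:23890845-23891094 on the minus strand, Vip at chr10:5639111-5639171 on the plus strand and Cck at chr9:121495709-121495769 on the minus strand.
Sst: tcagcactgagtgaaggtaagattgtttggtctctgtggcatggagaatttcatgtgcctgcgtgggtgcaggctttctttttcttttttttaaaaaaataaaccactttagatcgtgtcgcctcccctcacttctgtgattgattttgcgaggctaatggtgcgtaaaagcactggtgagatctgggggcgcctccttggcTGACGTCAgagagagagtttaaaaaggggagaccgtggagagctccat
Vip: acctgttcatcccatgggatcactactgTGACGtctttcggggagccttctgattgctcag
Cck: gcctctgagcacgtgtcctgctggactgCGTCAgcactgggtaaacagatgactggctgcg

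The members differed widely in level. Per kb of annotated exon (GENCODE, GRCm38), Cck was highest at 487 ± 54.3 normalized counts per kb (SD, n = 16 libraries), followed by Sst at 398 ± 92.6 and Npy at 363 ± 61.5. These leaders did not separate cleanly, since Cck was above Sst in 11 of 16 libraries and Sst above Npy in 10 of 16. Penk followed at 117 ± 17.2 and Pdyn at 72.5 ± 8.59. Npy was above Penk, Penk above Pdyn and Pdyn above Vip in all 16 libraries. Vip reached 10.7 ± 3.24 and Tac1 6.01 ± 2.02, with Vip above Tac1 in 15 of 16. Tac2 (5.05 ± 7.83), Nts (3.71 ± 3.01) and Crh (3.66 ± 2.14) were lowest, and their order was not stable: Tac2 was above Nts in 10 and Nts above Crh in 8 of 16 libraries. The Tac2 mean rested on untrained CA3 replicate 1, at 33.99 per kb. Without that library it was 3.12 ± 1.39 (SD, n = 15 libraries), below Crh at 3.66 and Nts at 3.65. With the longest transcript as the length, Cck rose to 795 per kb, and the order of the 10 genes was the same.

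**Figure D1:**
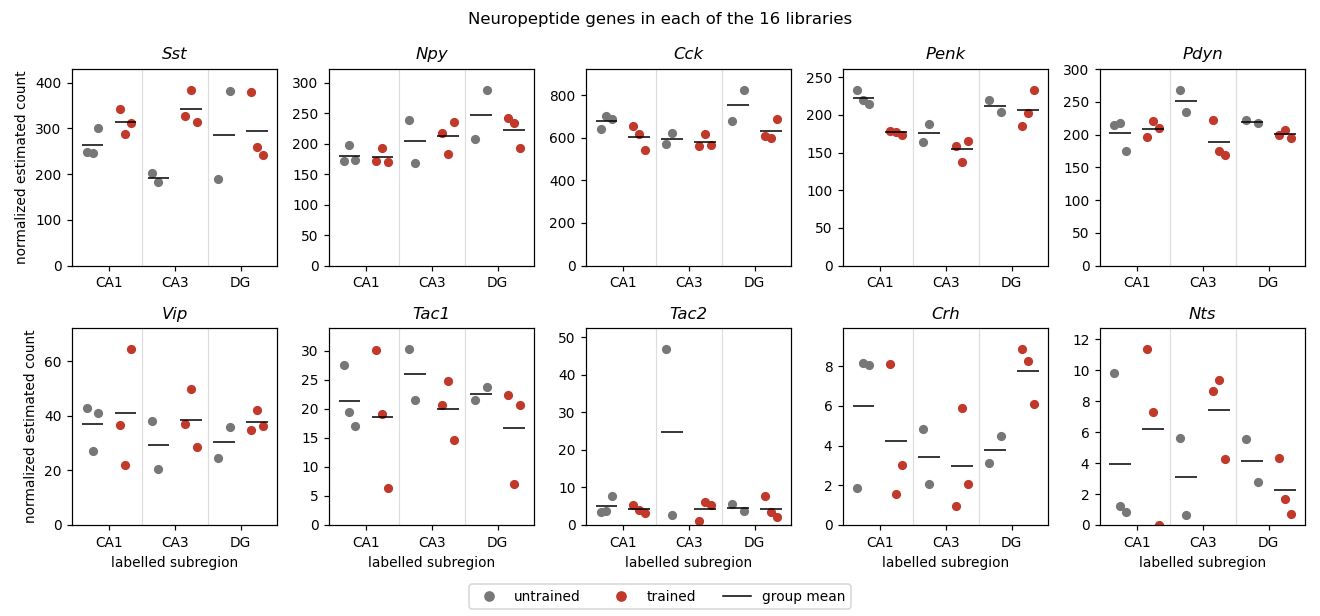
Normalized estimated counts (linear axis from 0) of the 10 neuropeptide genes in each library, with groups by labelled subregion, untrained in grey and trained in red, and group means as lines. In CA3 the trained Sst values (314 to 384) lie above the untrained ones (182 and 202), and Tac2 is high in 1 untrained CA3 library only (46.8).

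Low values limit what can be said of the rarest members. Tac2, Crh and Nts did not pass the filter of at least 10 normalized counts in 2 libraries (3 for training in CA1) and were not tested. Their median was about 4.5, 4.5 and 3.9 reads a library, by the approximate worth of a read. The 7 other members were tested in every comparison, with medians from 25.9 reads for Tac1 to 800 for Cck.

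Sst encodes somatostatin, which marks dendrite-targeting interneurons such as the O-LM cells. It lies on chromosome 16 from 23889573 to 23890958. In untrained CA3 the normalized counts were 202 and 182, and in trained CA3 they were 328, 384 and 314. Every trained CA3 library was thus above both untrained ones, with means of 342 ± 37.5 (SD, n = 3) and 192 ± 14.2 (SD, n = 2). The log2 fold change was 0.82 (SE 0.113, 95% interval 0.57 to 1.07, limma adjusted p = 0.0101), a 1.77-fold difference. With Sst, 1 of the 7 tested members passed the test in CA3, against 0.852% of all 13848 genes. Every trained library lay above every untrained one for 17.2% of all genes tested there.

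The Sst call rested on few libraries. Without untrained CA3 replicate 1, which held Tac2 and both sex-linked transcripts, the log2 fold change was 0.90 with a limma adjusted p of 0.0644. Leaving out untrained replicate 2 gave 0.75 (limma adjusted p = 0.0667). Both of these fits set the trained libraries against 1 untrained library, which was assumed to vary like the trained ones. Leaving out trained replicate 2 gave 0.74 (limma adjusted p = 0.0929). With the spread estimated from all 16 libraries the limma adjusted p was 0.106. The log2 fold change was above 0 in all 14 alternatives, from 0.60 to 0.90, and 9 of them passed the test, with adjusted p from 1.8e-05 to 0.865. The number of genes listed at 0 was 5659 and 3578 in the untrained and 8692, 8009 and 3171 in the trained CA3 libraries, and its part in the Sst result was not tested.

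Outside CA3 the Sst groups overlapped. Untrained CA1 had 247, 246 and 300 and trained CA1 342, 289 and 311, a log2 fold change of 0.25 (SE 0.106, limma adjusted p = 0.202). In DG the untrained libraries stood far apart, at 190 and 381, and spanned the whole range of the trained ones at 379, 259 and 242. The log2 fold change there was 0.09 (SE 0.413, 95% interval -1.10 to 1.28), so a change as large as that of CA3 was not excluded by the interval. Across all subregions it was 0.38 (SE 0.154, limma adjusted p = 0.138), and it passed only when untrained animal 3 was left out (0.59, adjusted p = 0.000813). The difference between the Sst effects of CA3 and DG was 0.73 (SE 0.356, limma adjusted p = 0.46) and that of CA1 and CA3 -0.57 (SE 0.338, adjusted p = 0.804), so the effects were not shown to differ between subregions.

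Other transcripts of inhibitory neurons were set beside Sst. Gad1 and Gad2, the enzymes that make GABA, had log2 fold changes of -0.04 and 0.01 in CA3 (limma adjusted p = 0.856 and 0.971). Slc32a1, the vesicular GABA transporter, had 0.50 there (SE 0.136, limma adjusted p = 0.119), and it rose across all subregions by 0.35 (SE 0.0771, adjusted p = 0.00489; 0.513 with the sex-linked covariate). As a percentage of Gad1, Sst was 9.59 and 10.4 in the untrained CA3 libraries and 18.3, 19.4 and 17.3 in the trained ones. Since Gad1 hardly changed there, this ratio restates the Sst values. In CA1 the ratio overlapped, at 12.4, 13.6 and 16.5 untrained and 18.6, 15.6 and 15.4 trained. It also did in DG, at 10.4 and 21.9 untrained and 18.8, 13.4 and 11.5 trained. Pcsk1n, the proSAAS precursor that inhibits a prohormone convertase, rose across all subregions by 1.30 (SE 0.271, limma adjusted p = 0.0101; 0.759 with that covariate). Over the 16 libraries Sst had a Pearson r of 0.79 with Pcsk1n and 0.66 with Slc32a1 (Spearman rho 0.75 and 0.60). After the group means were taken out these were 0.88 and 0.40. With Gad1 and Gad2 the Pearson r of Sst was only -0.06 and 0.19, and -0.05 and 0.50 after the group means were taken out. These correlations are descriptions, since libraries share animals and subregions. Markers of other tissue differed in CA3 too. Ttr of the choroid plexus fell by 3.29 on the log2 scale (limma adjusted p = 7e-06). The habenula receptor Gpr151 had 67.1 and 35.9 normalized counts in the untrained and 2.20, 4.71 and 4.71 in the trained libraries. It met the filter through the untrained libraries alone, so no test of it is given. The summed level of 7 choroid plexus markers was 837 and 1143 in untrained CA3 and 242 to 336 in trained CA3. Of 5 CA3 pyramidal markers 0 passed by limma in CA3, with 4 at an unadjusted p under 0.05 and a median log2 fold change of 0.60. Of 7 granule cell markers 0 passed there, with 3 at an unadjusted p under 0.05, a median of -0.36 and 0 above 0. Among all genes 0.852% passed and 15.8% had such an unadjusted p. Over all subregions 3 CA3 markers passed as higher and 1 as lower, against 10.3% of all genes. The part of these marker lists in the Sst result was not tested.

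**Figure D2:**
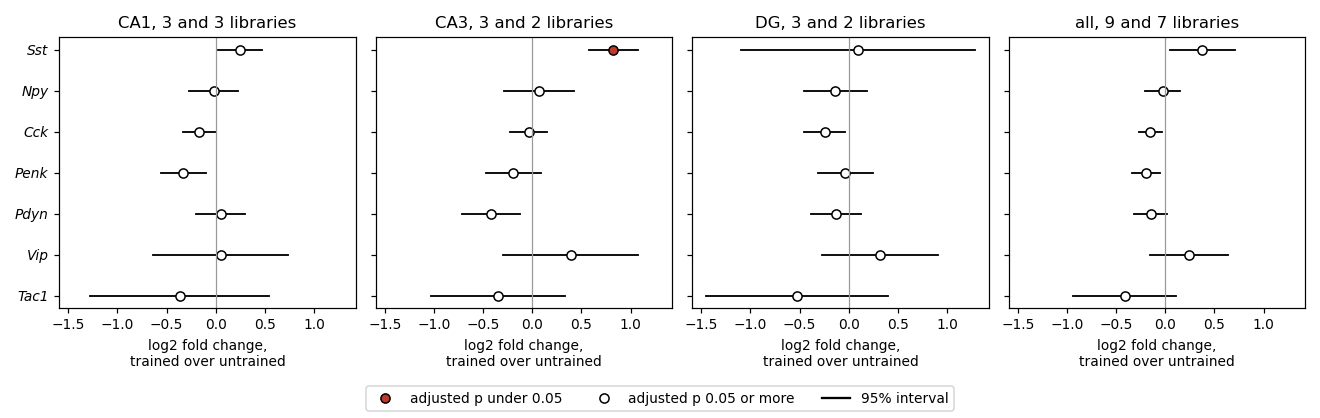
Log2 fold change of trained over untrained (points) with 95% intervals (lines) for the 7 tested members in CA1, CA3, DG and all subregions. Only Sst in CA3 (0.82, filled) had an adjusted p under 0.05; the interval of Sst in DG runs from -1.10 to 1.28.

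Pdyn and Penk encode the opioid precursors prodynorphin and proenkephalin, which give rise to dynorphins and enkephalins. Pdyn lies on chromosome 2 from 129686565 to 129699844. Its normalized counts in CA3 were 269 and 235 in the untrained and 222, 175 and 170 in the trained libraries. All trained values were below the untrained ones, an order that 16.7% of all genes tested in CA3 shared. The log2 fold change was -0.42 (SE 0.135, limma adjusted p = 0.166), and Pdyn passed only without trained CA3 replicate 1 (-0.54, adjusted p = 0.0266). In DG the untrained values of 222 and 218 were again above the trained ones of 200, 208 and 196, a smaller difference of -0.13 (SE 0.121, limma adjusted p = 0.603), in an order shared by 18.2% of genes. CA1 showed no such order, with 216, 218 and 175 untrained and 197, 221 and 210 trained. Across all subregions the log2 fold change was -0.15 (SE 0.0794, limma adjusted p = 0.24). Between CA1 and CA3 the Pdyn effects were 0.47 apart (SE 0.172, limma adjusted p = 0.554), which was not past the threshold.

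Of all tested members, Pdyn followed another gene most closely. Among 10766 genes of mean value of at least 50, Prox1 had the highest Pearson r with Pdyn over the 16 libraries, 0.95 (Spearman rho 0.94). It was 0.95 within the 6 groups and 0.90 without the 2 libraries farthest from the median of Prox1. The other granule cell markers had an r of 0.89 for Stxbp6, 0.86 for Dsp, 0.82 for Lct, 0.71 for C1ql2, 0.47 for Tdo2 and 0.46 for Pdzd2, all below the tenth-highest r of any gene with Pdyn, 0.903. Slc32a1 ran the other way at -0.77. The library with the most Pdyn, untrained CA3 replicate 1 at 269, also had the most Prox1 at 4786, and trained CA3 replicate 3, with the least Pdyn at 170, had the least Prox1 at 2690. For Pdyn 11 genes had an r above 0.9, whereas no gene reached it for the other 6 members. Prox1 itself had a log2 fold change of -0.46 in CA3 (SE 0.193, limma adjusted p = 0.329) and fell by 0.31 in DG (SE 0.0565, adjusted p = 0.00965), where it turned to 0.10 after upper-quartile rescaling. The part of granule cell content in the Pdyn values was not tested.

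**Figure D3:**
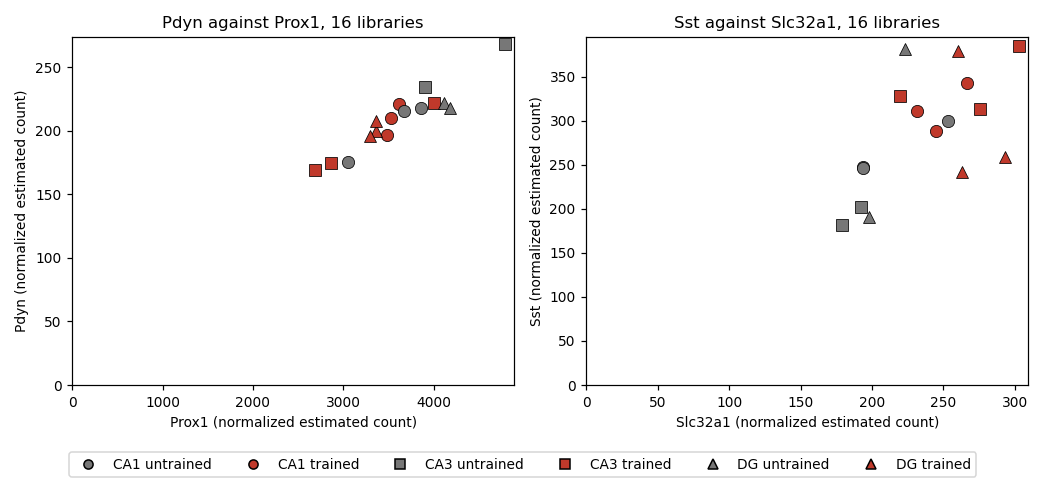
Left, Pdyn against Prox1, and right, Sst against Slc32a1, both in normalized counts on linear axes from 0; each of the 16 points is a library, with the labelled subregion as shape and training as colour. Pdyn rises with Prox1 along a narrow band whatever the label (r = 0.95), while Sst scatters more widely against Slc32a1 (r = 0.66). Gad1 and Gad2, not plotted, had an r of -0.06 and 0.19 with Sst.

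Penk lies on chromosome 4 from 4133531 to 4138819. Untrained CA1 had 233, 219 and 215 normalized counts and trained CA1 179, 178 and 173. The groups did not overlap, and 11.1% of all genes tested in CA1 had trained values below all untrained ones. The log2 fold change was -0.33 (SE 0.108, 95% interval -0.56 to -0.10), which missed the threshold (limma adjusted p = 0.0876). In CA3 it was -0.19 (SE 0.127, limma adjusted p = 0.494), with 164 and 188 untrained against 159, 138 and 165 trained. DG values overlapped fully, at 219 and 204 untrained and 186, 202 and 233 trained. Across all subregions the Penk fold change was -0.20 (SE 0.07, limma adjusted p = 0.0727). It passed without trained animal 3 (-0.23, adjusted p = 0.0492) and without untrained CA3 replicate 1 and trained DG replicate 3 (-0.26, adjusted p = 0.0343), and with a sex-linked covariate it was 0.06 (adjusted p = 0.939). In CA1, 0 of 7 members passed the limma test, against 5.23% of all 13588 genes (2 had an unadjusted p under 0.05, Penk and Sst). An unnamed transcript locus, A830012C17Rik, overlaps Penk on the opposite strand, and reads of the pair cannot be told apart where strand was not used.

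Cck, cholecystokinin, is made by basket cells and also by pyramidal cells, and lies on chromosome 9 from 121489824 to 121495694. In DG it had 678 and 825 normalized counts untrained and 607, 598 and 688 trained. The ranges overlapped only through trained replicate 3, with a log2 fold change of -0.25 (SE 0.0976, limma adjusted p = 0.173), which passed without untrained DG replicate 1 (-0.39, adjusted p = 0.0276), a fit with 1 untrained library assumed to vary like the trained ones. DG gave 0 of 7 members past the limma threshold (1, Cck, at an unadjusted p under 0.05), against 3.39% of all 13935 genes. CA1 had 640, 702 and 689 untrained and 655, 616 and 541 trained (-0.17, SE 0.0806, limma adjusted p = 0.269), and CA3 571 and 620 against 559, 617 and 564. Across all subregions Cck changed by -0.15 (SE 0.0555, limma adjusted p = 0.0817), by -0.20 without untrained CA3 replicate 1 and trained DG replicate 3 (adjusted p = 0.0497) and by 0.0093 with a sex-linked covariate (adjusted p = 0.991). In that comparison 0 of 7 members passed the limma test (3 at an unadjusted p under 0.05: Cck, Penk and Sst), against 10.3% of all 14673 genes.

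Npy, neuropeptide Y, often shares interneurons with somatostatin and lies on chromosome 6 from 49822710 to 49829507. The training groups overlapped in each subregion. CA1 was uniform, at 171, 198 and 173 untrained and 171, 192 and 171 trained. CA3 had 239 and 169 untrained and 217, 184 and 236 trained, and DG 207 and 289 against 242, 235 and 193. Across all subregions the log2 fold change was -0.03 (SE 0.0862, 95% interval -0.21 to 0.15), a tighter bound than that of Sst. The Npy and Sst levels of a library were only loosely related, with a Pearson r of 0.22 over 16 libraries.

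Vip, the vasoactive intestinal peptide of disinhibitory interneurons, lies on chromosome 10 from 5639218 to 5647617 and ranged from 20.5 to 64.5 normalized counts (median 36.5). The trained and untrained ranges overlapped in all 3 subregions, and the overall log2 fold change was 0.24 (SE 0.192, limma adjusted p = 0.471), and 0.06 to 0.34 when 1 animal was left out, lowest without untrained animal 2. Tac1, the substance P precursor on chromosome 6 from 7554879 to 7565834, ranged from 6.29 to 30.3 (median 21.1). Its overall log2 fold change was -0.41 (SE 0.254, limma adjusted p = 0.326), with a wide 95% interval from -0.94 to 0.11. It lay between -0.66 (without trained animal 1) and -0.21 (without trained animal 3) when 1 animal was left out. The lowest Tac1 values, 6.29 in trained CA1 replicate 3 and 6.97 in trained DG replicate 2, were about 2.0 and 4.2 reads.

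The tests between subregions asked whether a peptide was higher in 1 labelled region than in another, within animals. None of the 7 members passed in any of the 3 limma comparisons. At an unadjusted p under 0.05 there were 1 for CA1 against DG, 2 for CA1 against CA3 and 2 for CA3 against DG. Among all genes, 1.8% passed for CA1 against DG, 0.334% for CA1 against CA3 and 0% for CA3 against DG, so few genes of any kind separated these libraries. Sst averaged 289 ± 37.6 in CA1 (SD, n = 6), 282 ± 86.7 in CA3 (n = 5) and 290 ± 85.8 in DG (n = 5). Pdyn was as even, at 206 ± 17.3, 214 ± 41.9 and 209 ± 11.4. For the 5 abundant members, the 95% intervals of the 3 contrasts all lay between -0.58 and 0.46 on the log2 scale.

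Penk and Npy came closest to a regional difference. Penk was 163 ± 18 in CA3 (SD, n = 5), 209 ± 17.9 in DG (n = 5) and 200 ± 25.9 in CA1 (n = 6). CA3 was below DG by a log2 fold change of -0.39 (SE 0.0943, 95% interval -0.58 to -0.19), with an unadjusted p of 0.000558 but a limma adjusted p of 0.737. CA1 over CA3 was 0.28 (SE 0.0876, limma adjusted p = 0.202). Npy was 179 ± 12.5 in CA1, 209 ± 31.4 in CA3 and 233 ± 36.9 in DG. CA1 over DG was -0.35 (SE 0.111, limma adjusted p = 0.114). The lowest DG value of Npy, 193, was still within the CA1 range of 171 to 198. Training effects were not shown to differ between subregions for any of the 7 members by limma (unadjusted p under 0.05 for 1, Pdyn, CA1 against CA3). The background was 2.75% of genes for CA1 against DG, 0.0273% for CA1 against CA3 and 0.164% for CA3 against DG.

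**Figure D4:**
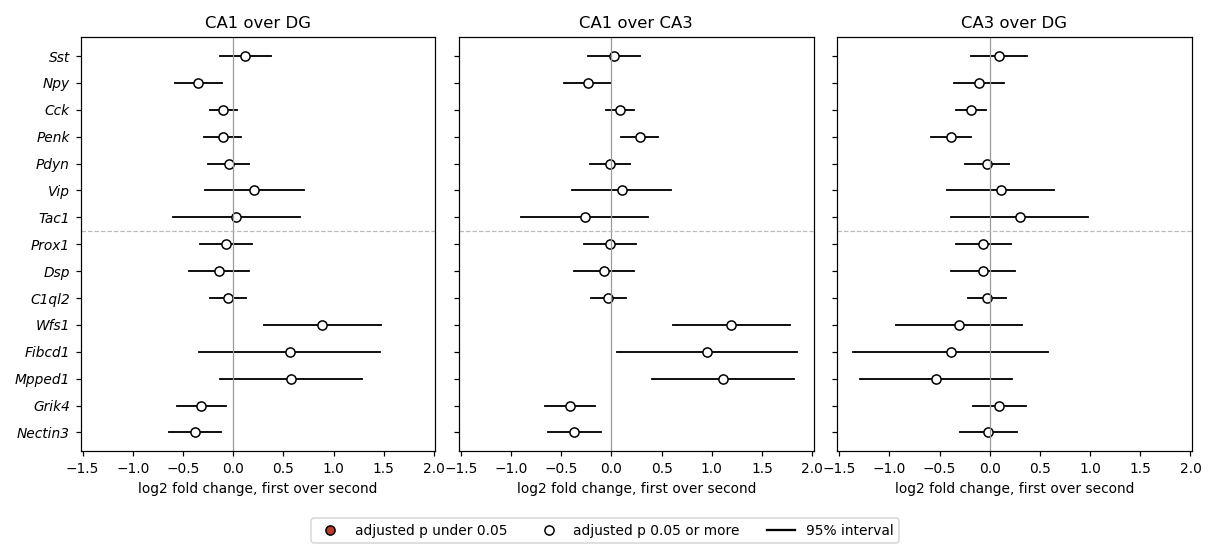
Log2 fold changes with 95% intervals between labelled subregions for the 7 tested members (above the dashed line) and for markers of granule cells (Prox1, Dsp, C1ql2), CA1 (Wfs1, Fibcd1, Mpped1) and CA3 (Grik4, Nectin3). No gene shown passed an adjusted p of 0.05; the granule markers sit near 0 in all panels, and the CA1 markers lie to the right in CA1 over CA3 (Wfs1 1.19).

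Tac2, the neurokinin B precursor, is known for its high level in the medial habenula, which lies close to the dorsal hippocampus. It lies on chromosome 10 from 127724478 to 127731768. In 15 libraries its normalized count was between 1.05 and 7.60, with a median of 3.81. Untrained CA3 replicate 1 had 46.8, or about 40.0 reads, so the mean of untrained CA3, 24.7, describes neither of its libraries (46.8 and 2.62). In the same library Gpr151 was 67.1, against at most 35.9 elsewhere, and the nicotinic receptor subunits Chrna3 and Chrnb4, both typical of the medial habenula, were 24.9 and 13.5 against at most 11.9 and 8.87. Nwd2 (672 against at most 538) and Tcf7l2 (154 against at most 117) were also highest there, whereas the habenula marker Nhlh2 at 17.1 was exceeded in 6 libraries. Of the mossy cell markers, Calb2 was 82.6 (at most 53.3 elsewhere) and Drd2 35.1 (at most 26.2), also the highest, whereas Csf2rb2 at 31.9 was below its highest value of 44.5 in untrained DG replicate 1. The peptide precursor Adcyap1 was 54.5 (at most 26.8). Without Tac2, the 5 other habenula markers summed to 794 there, of which Nwd2 gave 672, and to 408 to 571 in the other 15 libraries. Without Nwd2 as well, the sum was 122.5 there and 6.27 to 67.9 elsewhere. Whether carried-over habenula tissue accounts for Tac2 was not tested.

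**Figure D5:**
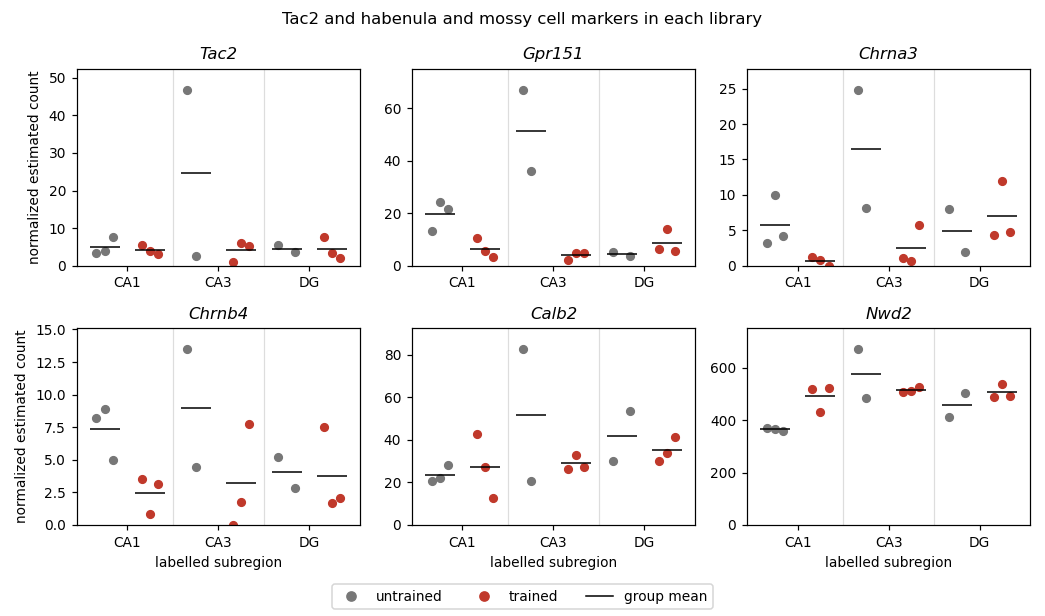
Normalized counts of Tac2, the habenula markers Gpr151, Chrna3, Chrnb4 and Nwd2, and the mossy cell marker Calb2 by library, untrained in grey and trained in red. The same untrained CA3 library is highest in all 6 panels (Tac2 46.8, Gpr151 67.1), but not for the habenula marker Nhlh2 and the mossy cell marker Csf2rb2, which are not plotted.

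Crh, the corticotropin-releasing hormone gene on chromosome 3 from 19693401 to 19695396, lay between 0.945 and 8.87 normalized counts. Trained DG (8.87, 8.24 and 6.11) was above untrained DG (3.12 and 4.48), an order shared by 17.5% of all genes tested in DG, and these are few reads, so no test was made. Nts, the neurotensin gene on chromosome 10 from 102481756 to 102490486, is expressed strongly in the subiculum and ranged from 0 to 11.4. Its groups overlapped in every subregion.

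Receptors for these peptides were described from a list of 24 genes. By limma, 2 of the 17 receptors tested passed in CA1 (5.23% of all genes), 2 of 17 in CA3 (0.852%), 1 of 19 in DG (3.39%) and 2 of 21 over all subregions (10.3%). In DG the 1 call was Sstr5, which met the filter on low values through the trained libraries alone, and over all subregions the share was near that of all genes. The list medians of the log2 fold changes (0.0074, -0.03, 0.12 and -0.09) stood beside those of all genes (0.0003, -0.0058, 0.0008 and -0.0091). Among the somatostatin receptors, Sstr3, found on neuronal cilia, rose in CA3, from 157 and 203 normalized counts to 270, 276 and 329. Its log2 fold change was 0.70 (SE 0.135, limma adjusted p = 0.0463), and across all subregions 0.36 (SE 0.0913, adjusted p = 0.0122; 0.118 with the sex-linked covariate). Sstr4 fell by 0.80 in CA1 (SE 0.168, limma adjusted p = 0.0093), from 197, 181 and 265 to 120, 150 and 97.0. Its effect there differed from that in DG by -1.10 (SE 0.272, limma adjusted p = 0.0317). In that comparison of training effects 3 of 21 receptors passed by limma, all lower in CA1 than in DG, against 2.75% of all genes. Sstr2 fell by 0.47 across all subregions (SE 0.144, limma adjusted p = 0.0372; 0.722 with that covariate). Sstr5 had 11.02, 13.54 and 11.42 in trained DG and 0 and 0.93 in untrained DG, and since only the high group met the filter no test of it is given.

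Of the neuropeptide Y receptors, Npy2r passed in CA1 and Npy5r in CA3. Npy2r, a largely presynaptic receptor, rose in CA1 by 0.51 (SE 0.0812, limma adjusted p = 0.000739), from 362, 356 and 375 to 491, 535 and 535. Npy5r fell by 0.76 in CA3 (SE 0.143, limma adjusted p = 0.0385), where both untrained libraries had 117 and the trained ones 70.9, 63.9 and 70.0. Npy itself did not pass the test in either subregion. Sort1 (5764 to 7033 normalized counts), Ntsr2 (351 to 595) and Npy1r (299 to 482) did not pass in any training comparison. Of these, Npy1r in CA3 had a log2 fold change of -0.41 (SE 0.12, limma adjusted p = 0.141). After upper-quartile rescaling, which moved the median of all genes by -0.47 in CA1, the receptors named as having passed kept their direction, but Npy2r in CA1 came to 0.03, Sstr4 in CA1 to -1.28 and Sstr3 over all subregions to 0.24. No receptor passed between labelled subregions by limma (of 21 tested, 4, 1 and 1 had an unadjusted p under 0.05), against 1.8%, 0.334% and 0% of all genes.

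Of the genes that process and secrete peptides, 3 of 13 passed in CA1, against 5.23% of all genes. In CA3 limma called 0 (6 at an unadjusted p under 0.05), against 0.852% of all genes, and 2 passed in DG (3.39%) and 4 in all subregions (10.3%). The granin Chgb rose in CA1 by 0.57 (SE 0.0651, limma adjusted p = 0.000112) and the convertase Pcsk2 by 0.25 (adjusted p = 0.00447), while Cadps2, which primes dense-core vesicles, fell by 0.45 (adjusted p = 0.00313). Scg2 and Scg3, granins of the same vesicles, fell in DG by 0.35 and 0.41 (limma adjusted p = 0.0165 and 0.0117). Upper-quartile rescaling turned the direction of Pcsk2 in CA1 (-0.23) and of Scg2 and Scg3 in DG (0.06 and 0.003), brought Chgb in CA1 to 0.09 and Cadps2 to -0.93. Across all subregions Pcsk1n, the carboxypeptidase Cpe (0.19, limma adjusted p = 0.0102) and Cadps (0.17, adjusted p = 0.0174) rose and Scg2 fell by 0.22 (adjusted p = 0.00936). Under the same rescaling Cpe came to 0.06, Cadps to 0.04 and Scg2 to -0.34 there, and with the sex-linked covariate their limma adjusted p were 0.0771, 0.167 and 0.263. The median log2 fold change of the 13 genes was 0.09 in CA1, 0.22 in CA3, 0.04 in DG and 0.12 in all subregions.

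Of 18 interneuron markers 16 were tested. In CA1, 1 passed (6 at an unadjusted p under 0.05), against 5.23% of all genes. It was Reln, which fell by 0.25 (SE 0.0622, limma adjusted p = 0.0204; -0.73 after upper-quartile rescaling). Across all subregions 2 passed, against 10.3% of all genes, Slc32a1 and Nos1 (0.22, SE 0.0506, limma adjusted p = 0.00744; 0.488 with the sex-linked covariate). The rescaling brought these to 0.23 and 0.09. CA3 gave 0 of 16 past the limma threshold (4 at an unadjusted p under 0.05) and DG 0 of 16 (3), against 0.852% and 3.39% of all genes. A list of 29 other neuropeptide precursors, of which 7 or 8 were tested, gave 0 calls in each training comparison by limma, with 2 at an unadjusted p under 0.05 in CA1 and 1 in each of the other comparisons.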

How the data were processed

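Total RNA of dissected CA1, CA3 and DG was depleted of ribosomal RNA and sequenced. Per the labels, reads were handled with bcl2fastq 2.20, FastQC, Trim Galore, STAR and DESeq2 on GRCm38, and the study's methods add Salmon. The deposited signal is an estimated count per gene that the authors had normalized between libraries. Its median-of-ratios factors were 1 in all 16 libraries, and whole reads could not be recovered (15.1% to 65.4% of low values were whole within 0.05). A count test was therefore replaced by limma 3.58.1 in R 4.3.3 on log2(value + 2), modelling the trend of variance with mean, estimating hyperparameters robustly and adjusting p over all genes tested by Benjamini-Hochberg. Fold changes are on that scale, which understates those of low genes. Genes needed a value of at least 10 in 3 (CA1) or 2 libraries. Training was fitted per subregion and over all libraries with subregion as a term. Subregions were compared with the animal as a block, and differences of training effects in a fit of 6 groups. The training fit over all libraries and the fit of 6 groups had no animal term. Up to 3 libraries of 1 animal thus counted there as separate samples, although training was given to 3 animals a group. The consensus correlation within animals was estimated at -0.0355. The filter, fits and the calling of changed genes were tested on simulated data.

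The 10 members and all lists were chosen with earlier results of these data known. All members, Gad1, Gad2 and Slc32a1 were named in the text; of the receptor, peptide precursor, processing, interneuron and immediate early gene lists, up to 4 genes per comparison with the smallest adjusted p under 0.05, and receptors of the highest level. Pcsk1n and Prox1 in single subregions and the habenula, mossy cell and thalamic genes beside Tac2 were chosen after their values were seen. So were Fibcd1, Tdo2 and, beyond the limit of 4, Egr1 in CA1. The 3 genes most like each member are those with the highest Pearson r among genes of mean value of at least 50. Symbols were matched to GENCODE M21 (98.0% found) and promoters to RefSeq. The submitters' build label was used for positions.

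Same-numbered libraries were taken as the same animal within a training group, from the titles, although Xist separated the CA3 library of untrained animal 1 from its CA1 and DG libraries, and the animal block rests on that numbering. Their deviations from group means had correlations from -0.108 to 0.092 (14 pairs). The depth is not stated, so no counting intervals are given. No pair of libraries was identical. Alternatives were other scalings, filters, pseudocount 0.5, no robust estimation, 1 spread for all libraries, blocks, a sex-linked covariate and libraries left out. A covariate of the genes listed at 0 was also used in fits over all libraries. For training over all subregions it gave 0 members and 1879 of 14673 genes past the limma threshold.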

Additional observations from a re-analysis of the deposited data

Results flagged for a closer look

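Among 50 groups of members and libraries examined for a library that stands apart, 3 were flagged, and chance flags about 1 in 20. Tac2 was flagged in the CA3 libraries and again among the untrained ones, both times for untrained CA3 replicate 1, whose normalized count of 46.84 compares with 1.05 to 6.15 in the other CA3 libraries and 2.62 to 7.60 in the other untrained ones. Tac1 was flagged in DG, where trained replicate 2 had 6.97 and the other 4 libraries 20.6 to 23.7. No member's training effect passed a test of difference between subregions.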

How the results depend on the processing

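A direction was followed where the unadjusted p was under 0.05. Of 221 such values under an alternative 4 changed sign, as did 69 of 613 without a direction. Upper-quartile rescaling over values above 0 moved the median of all genes by -0.47 in CA1, -0.23 in CA3 and 0.40 in DG, and gave 4 members called in CA1 (all lower) and 0 in CA3. Under it Sst in CA1 was -0.23, Pdyn in CA1 -0.425 and Cck in DG 0.16, all in the opposite direction to before. The same rescaling over genes above 0 in every library, chosen after seeing the data, changed no member's call in any training comparison. The spread from all 16 libraries gave 0 members in CA3. Leaving out libraries gave 0 to 2 members in CA3, 0 to 1 in DG and 0 to 1 over all subregions, and 0 in CA1. Without untrained CA3 replicate 1 and trained DG replicate 3, in which Xist and Ddx3y were both over 200, 2 members passed over all subregions. A sex-linked covariate turned Cck to 0.0093 and Penk to 0.0625. The causes were not tested, beyond the smaller number of libraries.

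Counts of all genes moved by over 1.5 times. CA1 had 710 genes, 1877 without the filter and 9448 after upper-quartile rescaling. CA3 had 118 genes, 13 after that rescaling, 56 without robust estimation and 422 with the spread of all libraries. DG had 473 genes, 6003 after rescaling and 308 without robust estimation, and the combined comparison 1517, 99 after rescaling, 980 without untrained CA3 replicate 1 and trained DG replicate 3, 998 without the former alone and 0 by limma with the sex-linked covariate (1702 at an unadjusted p under 0.05). Leaving out libraries gave 339 to 888 genes in CA1, 7 to 678 in CA3, 32 to 1574 in DG and 453 to 1872 combined.

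Across training groups the replicate numbers share only a number: same-numbered pairs had correlations from -0.18 to 0.119. With this number as a replicate block Sst in CA3 had 0.88 (limma adjusted p = 1.8e-05) and CA3 had 1160 genes, and members called stayed 0 in CA1 and DG. Without the animal block, 0 members passed between subregions. Levels per kb by longest transcript were 795 for Cck, 87.8 for Pdyn, 14.4 for Vip and 10.4 for Tac1. Few reads lay behind the rarer members, with medians a library of 4.5 for Tac2 and Crh and 3.9 for Nts, and of 34.4 for Vip and 25.9 for Tac1.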

Other observations

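The transcription of immediate early genes follows neuronal activity. Of 14 tested in CA1, 5 passed the limma test, all lower, against 1.7% of all genes called lower. Egr2 fell by 1.61 on the log2 scale (SE 0.27, adjusted p = 0.00169), Egr4 fell by 0.98 (adjusted p = 0.0108), Egr1 fell by 0.96 (adjusted p = 0.0157), Fos fell by 0.74 (adjusted p = 0.00521) and Homer1 fell by 0.59 (adjusted p = 3.2e-05). Upper-quartile rescaling brought Fos to -1.21 and Homer1 to -1.07. The median of the 14 genes was -0.47 in CA1, -0.04 in CA3 and -0.08 in DG, and 0 passed by limma in CA3 and in DG (0 and 2 at an unadjusted p under 0.05). In CA1, trained and untrained libraries also differed in genes listed at 0 (8323 to 9759 against 3124 to 5425), so that difference and training cannot be told apart there. Of the 5 CA1 pyramidal markers 1 passed there, Fibcd1, which fell by 1.32 (limma adjusted p = 0.0139), and the median log2 fold change of the 5 was -0.88. The part of these markers in the immediate early gene values was not tested.

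The genes most like the remaining members over 16 libraries were Hip1r (Pearson r 0.89), Iqsec1 (0.883) and Fam19a5 (0.856) for Sst. For Npy they were Smim10l1 (0.845), Mrps26 (0.808) and Ubald1 (0.805), and for Cck Gtpbp1 (0.841), Stip1 (0.823) and Cttnbp2nl (0.787). Penk ran with Nmt1 (0.831), H2afx (0.808) and Dbr1 (0.806), Vip with Ccdc126 (0.801), Hmga1b (0.768) and Tk2 (0.756), and Tac1 with Mlx (0.861), Grb10 (0.853) and Ints2 (0.824). After Prox1, Pdyn was most like Slc39a6 (0.929) and Plekha2 (0.922). These are the highest of at least 10766 correlations each and were not tested. Within the 6 groups Sst and Penk had an r of -0.67, against -0.42 over all libraries.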
